A study of Mus musculus with 9 samples.

Results

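The genes described here are 10 genes of heme breakdown and cellular iron handling in mouse chondrocytes, read from the rows named Hmox1, Blvra, Blvrb, Ftl1, Fth1, Slc40a1, Tfrc, Slc11a2, Ireb2 and Aco1 among the 55450 gene rows of each library. All 10 were found once in every library, and all 10 passed the filter on low values (1 FPKM or more in 3 or more libraries), which left 12441 genes for testing. FPKM are fragments per unit of exon length, scaled for the size of the library, so levels of different genes can be set side by side per unit of length.

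Primary articular chondrocytes, the cells that make joint cartilage, were kept in medium with 10% serum at 3% oxygen and were all given hyaluronidase type I-S at 4 U/mL for 4 h without serum. The 3 vehicle cultures then received PBS for 24 h and DMSO for 5 days. The 3 bleomycin cultures received bleomycin, a drug that breaks DNA, at 50 μg/mL for 24 h and then DMSO for 5 days. The 3 cultures with bleomycin plus ST045849 received the same bleomycin and then ST045849, a small-molecule inhibitor of the O-GlcNAc transferase OGT, at 20 μM for 5 days. There was no group with ST045849 alone, so its changes are those in bleomycin-treated cells only. Whether the libraries of a group came from separate animals or cultures is not stated in the labels, so p-values measure the spread between these libraries, which may be technical.

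Heme oxygenase 1, made by Hmox1, opens the heme ring and releases iron, carbon monoxide and biliverdin, and the biliverdin reductases made by Blvra and Blvrb reduce biliverdin further. Free iron is stored in ferritin, a shell of heavy (Fth1) and light (Ftl1) chains, is brought in through the transferrin receptor (Tfrc) and the metal transporter DMT1 (Slc11a2), and leaves through ferroportin (Slc40a1). The iron regulatory proteins made by Aco1 and Ireb2 bind a short RNA hairpin, the iron-responsive element, when iron is scarce: in a 5′ UTR this blocks translation, and in the 3′ UTR of Tfrc it protects the transcript. Hmox1, both ferritin chains and several antioxidant genes are also known to be switched on by the transcription factor NRF2 and held down by the repressor BACH1.

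The hairpins are shown because they are the known sites at which iron regulatory proteins bind transcripts of these genes. The search used the letters of the unpaired C and the 6-base loop CAGTGN with 5 paired bases between and after them, on the transcript strand of GENCODE vM21 (GRCm38). Each sequence below runs 5′ to 3′ over 30 bases, with the unpaired C and the loop in capitals.
Fth1, 5′ UTR, chr19:9982732-9982761, plus strand: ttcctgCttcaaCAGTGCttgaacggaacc
Ftl1, 5′ UTR, chr7:45459778-45459807, minus strand: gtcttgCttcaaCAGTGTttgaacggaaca
Slc40a1, 5′ UTR, chr1:45925464-45925493, minus strand: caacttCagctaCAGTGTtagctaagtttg
Tfrc, 3′ UTR, chr16:32631219-32631248, plus strand: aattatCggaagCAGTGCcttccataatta
Tfrc, 3′ UTR, chr16:32631598-32631627, plus strand: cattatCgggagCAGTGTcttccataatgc
Tfrc, 3′ UTR, chr16:32631663-32631692, plus strand: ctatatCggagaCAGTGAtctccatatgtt
Tfrc, 3′ UTR, chr16:32631710-32631739, plus strand: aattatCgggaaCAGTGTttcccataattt

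Both ferritin genes and Slc40a1 held 1 match each in a 5′ UTR, and Tfrc held 4 matches in its 3′ UTR. Of 21901 coding genes searched in the same way, 0.142% had a match in a 5′ UTR and 0.589% in a 3′ UTR. The letters were not found in the UTRs of the other 6 genes, which says nothing of hairpins with other letters. A 3′ UTR hairpin is known in an Slc11a2 isoform and was not found by this search. The match lay in 4 of the 5 annotated coding transcripts of Fth1 and in 1 of the coding transcripts of each of Ftl1, Slc40a1 and Tfrc.

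The libraries were of similar relative depth, from 0.875 to 1.01 times that of the first vehicle library as read from the steps between low values, and absolute depth is unknown. Summed FPKM was 340303 to 406644 in vehicle, 356573 to 370089 in bleomycin and 382247 to 483953 with ST045849. The 9 chondrocyte markers, among them Col2a1 and Acan, summed to 25778 to 35015 FPKM in vehicle, 19020 to 26474 in bleomycin and 15522 to 22498 with ST045849, so the labelled cell type was present in every library. Col2a1 made up most of each sum. In ST045849 against vehicle, Acan (log2 change -1.66), Col11a1 (-1.42) and Matn3 (-1.80) were lower at an adjusted p under 0.05 in limma. These were 3 of the 9, where 9.85% of all tested genes passed. When 1 library was left out in turn, Acan passed in 9 of 9 fits, Matn3 in 8 and Col11a1 in only 2. None of the 9 markers passed in bleomycin against vehicle, where 4.88% of all tested genes did. There 8 of the 9 had a negative log2 change, with a median of -0.39 beside 0.10 for all genes. Acan passed there once a trend with exon length was removed (-1.04, limma adjusted p 0.0236). In bulk RNA, fewer cells of a type and less RNA per cell cannot be told apart. With ST045849, short genes were higher and long genes lower relative to bleomycin: the median log2 change was 0.49 for the 1384 genes of 1000 to 2000 exon bases and -0.40 for the 2118 genes over 8000. Library slopes of level on log2 exon length were -0.072 to 0.101 in vehicle, 0.038 to 0.097 in bleomycin, and 0.019, -0.212 and -0.139 in ST045849 libraries 1, 2 and 3, so the first ST045849 library stood apart from the other two.

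Hmox1, Fth1, Ftl1 and Blvrb were higher in cells given bleomycin and ST045849 than in vehicle cells, by 16, 3.73, 3.81 and 2.76 times in group means. These 4 of the 10 genes were called at an adjusted p under 0.05 in that comparison, all higher, against 9.85% of the 12441 tested genes called in either direction and 8.11% called higher. The other reductase (Blvra), the importers, the exporter and both iron regulatory protein genes were not called. The 10 genes were chosen with earlier results of these data known, so these counts are description only. In ST045849 against vehicle too, the median log2 change was 0.54 for genes of 1000 to 2000 exon bases and -0.23 over 8000. With the length trend removed, Hmox1, Fth1, Ftl1 and Blvrb changed by 3.53, 1.80, 1.47 and 1.10 in place of 3.86, 1.90, 1.84 and 1.29. All 4 were still called (adjusted p 0.00113, 0.00245, 0.0132 and 0.0254). In bleomycin against vehicle 0 of the 10 were called, against 4.88% of tested genes. In bleomycin plus ST045849 against bleomycin 0 of the 10 were called, against a background of 0%, since limma called 0 genes there at an adjusted p under 0.05 (2804 had an unadjusted p under 0.05). The 3 comparisons share groups: bleomycin is the treated group of the first and the control of the second, and vehicle and the ST045849 group each enter 2 comparisons as well. All adjusted p given here are from limma on log2(FPKM + 1) with Benjamini-Hochberg adjustment over all tested genes, and log2 changes are on that scale, which understates the change of low genes.

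**Figure D1:**
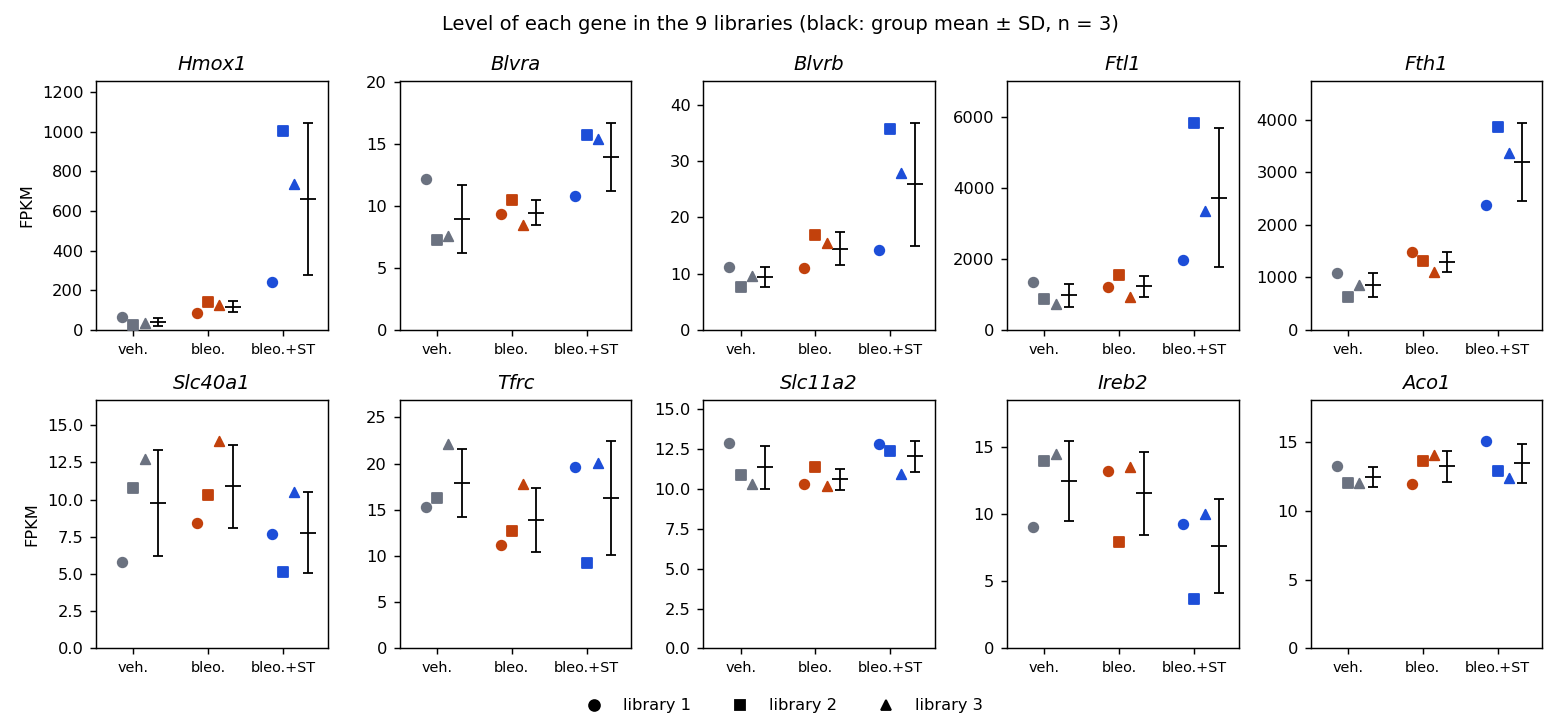
FPKM of each gene (y axis, from 0, a separate scale per panel) in the 3 vehicle, 3 bleomycin (bleo.) and 3 bleomycin plus ST045849 (bleo.+ST) libraries, with the marker shape giving the library number and the black bar the group mean ± SD (n = 3). Hmox1 lay between 24.5 and 65.2 in vehicle, 87.2 and 141 in bleomycin, and 243 and 1002 with ST045849, with no overlap between groups.

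Hmox1 (ENSMUSG00000005413; chr8:75093621-75100589 on GRCm38, plus strand, 1751 exon bases) encodes the inducible heme oxygenase. Its level was 65.2, 24.5 and 34.1 FPKM in the vehicle libraries, 87.2, 141 and 123 in the bleomycin libraries, and 243, 1002 and 737 with ST045849. The 3 groups did not overlap, and the first ST045849 library was far below the other two of its group. Among all genes Hmox1 ranked 929th to 2143rd by level in vehicle, 359th to 550th in bleomycin and 64th to 209th with ST045849. Its highest library was 40.9 times its lowest, the widest range of the 10 genes.

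Hmox1 rose by 3.86 ± 0.50 (log2 change ± SE, n = 3 per group) in bleomycin plus ST045849 against vehicle, with an adjusted p of 0.00214 in limma. It kept an adjusted p under 0.05 in all 16 alternative settings and all 9 leave-outs of 1 library, with 0.0318 the highest of these. Against vehicle, bleomycin alone gave a log2 change of 1.57 ± 0.50 and an adjusted p of 0.106. That value passed the threshold in 6 of the 16 alternatives, with 0.0364 after the length trend was removed, and in 1 of the 9 leave-outs, that of the first ST045849 library (0.0232). The other leave-outs gave up to 0.302. Genes of like length had a median change of 0.07 in that comparison.

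Between bleomycin plus ST045849 and bleomycin, the Hmox1 change was 2.29 ± 0.50 with an adjusted p of 0.203. Libraries of the same number deviated together in these 2 groups, a pairing read from these data and not stated in the labels. A limma fit with the replicate number as a block gave 2.29 ± 0.26 and an adjusted p of 0.00372. The same-numbered folds were 2.79, 7.10 and 5.97, higher in 3 of 3. With the block and the length trend removed the change was 1.93 ± 0.21 with an adjusted p of 0.0477, close to the threshold, where 0.129% of genes were called. The median change of the 945 genes of like length was 0.44.

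Hmox2 (2217 exon bases), the heme oxygenase that most cells make constantly, was 25.2, 24.6 and 19.9 FPKM in vehicle, 17.3, 21.8 and 20.1 in bleomycin, and 34.6, 32.5 and 49.9 with ST045849. Its ST045849 libraries lay above all others, but it was not called in any comparison without the block (adjusted p 0.0594 against vehicle). The blocked fit of ST045849 against bleomycin gave 0.0189, and 0.0924 with the length trend also removed. The ratio of Hmox1 to Hmox2 FPKM within a library went from 0.99 to 2.59 in vehicle through 5.03 to 6.48 in bleomycin to 7.01 to 30.8 with ST045849. In vehicle cells the transcripts of both oxygenases thus differed by at most 2.59 times per length, and in every bleomycin-treated library Hmox1 was the more abundant.

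Blvrb (ENSMUSG00000040466; chr7:27447978-27466144, plus strand, 2782 exon bases), which reduces flavins and some biliverdin isomers, was 11.1, 7.56 and 9.52 FPKM in vehicle, 11.1, 16.8 and 15.4 in bleomycin, and 14.2, 35.8 and 27.8 with ST045849. The ST045849 libraries lay above all vehicle libraries, while the first of them fell within the bleomycin range. Blvrb rose by 1.29 ± 0.31 in ST045849 against vehicle (limma adjusted p 0.0273). The call was kept in 12 of the 16 alternatives. Leaving out library 2 or 3 of either group ended it, with adjusted p up to 0.122. Against bleomycin the change was 0.73 ± 0.31 (0.212), with 0.0312 in the blocked fit and 0.0993 with block and length trend removed. Bleomycin against vehicle gave 0.57 ± 0.31 (0.402).

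Blvra (ENSMUSG00000001999; chr2:127070665-127097084, plus strand, 2446 exon bases), the main reductase of adult biliverdin, was 12.1, 7.21 and 7.57 FPKM in vehicle, 9.34, 10.5 and 8.46 in bleomycin, and 10.8, 15.7 and 15.4 with ST045849. The ST045849 libraries lay above the bleomycin libraries, but the first of them was below the first vehicle library. The changes were 0.09 ± 0.23 for bleomycin against vehicle, 0.51 ± 0.23 for ST045849 against bleomycin and 0.60 ± 0.23 for ST045849 against vehicle. None passed (adjusted p 0.904, 0.223 and 0.111), and the blocked fit of the second gave 0.0803. The median change of 1506 genes of like length in that second comparison was 0.31.

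**Figure D2:**
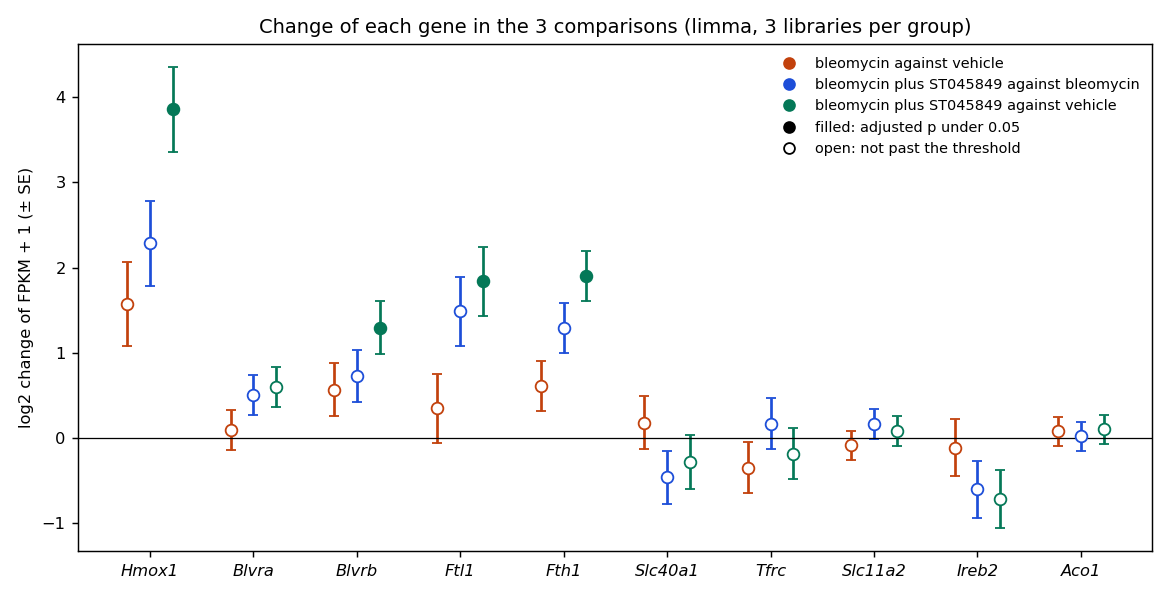
Log2 change of FPKM + 1 (y axis) for each gene in each comparison between 2 of the 3 groups; points are limma estimates, bars are ± 1 SE, and filled points passed an adjusted p of 0.05. The filled points are Hmox1, Blvrb, Ftl1 and Fth1 in the last comparison, between 1.29 and 3.86.

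The ferritin chains were the most abundant of the 10 genes in every library. Fth1 (ENSMUSG00000024661; chr19:9980598-9985098, plus strand, 3469 exon bases), the chain with the ferroxidase site, was 1080, 635 and 857 FPKM in vehicle, 1480, 1303 and 1095 in bleomycin, and 2384, 3852 and 3359 with ST045849. The 3 groups did not overlap. Fth1 ranked 35th to 55th among all genes in vehicle, 20th to 25th in bleomycin and 7th to 11th with ST045849.

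Fth1 rose by 1.90 ± 0.29 in ST045849 against vehicle (limma adjusted p 0.0044), a call kept in all 9 leave-outs (at most 0.0288) and lost in 1 of the 16 alternatives, that of the 2 groups alone with a replicate block (0.0841). Against bleomycin the change was 1.29 ± 0.29 (0.203), with 0.0176 in the blocked fit and 0.0549 with block and length trend removed. The same-numbered folds were 1.61, 2.96 and 3.07. The like-length median in that comparison was 0.15, over 2142 genes. Bleomycin against vehicle gave 0.62 ± 0.29 (0.315).

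Ftl1 (ENSMUSG00000050708; chr7:45457944-45459884, minus strand, 1340 exon bases), the chain that helps the iron core form, was 1347, 866 and 726 FPKM in vehicle, 1210, 1542 and 943 in bleomycin, and 1973, 5854 and 3362 with ST045849. Vehicle and bleomycin overlapped, and the ST045849 libraries lay above both. The second ST045849 library held the highest level, and Ftl1 ranked 3rd to 13th among all genes in that group.

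Ftl1 rose by 1.84 ± 0.40 in ST045849 against vehicle (limma adjusted p 0.0195). The call was kept in 13 of the 16 alternatives. It ended when vehicle library 2 or 3 or ST045849 library 2 or 3 was left out, with adjusted p up to 0.0917. Against bleomycin the change was 1.49 ± 0.40 (0.203), with 0.0163 in the blocked fit and 0.0558 with block and length trend removed. The same-numbered folds were 1.63, 3.80 and 3.57, and the like-length median change was 0.51 over 638 genes. Bleomycin against vehicle gave 0.35 ± 0.40 (0.756).

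The Ftl1 row may not hold all fragments of its locus. Gm22133, an annotated miRNA gene of 109 bases (chr7:45458089-45458197), lies wholly inside the Ftl1 exons on the same strand, and was listed at 2496, 1442 and 1667 FPKM in vehicle, 2024, 2595 and 2456 in bleomycin, and 3883, 12552 and 9346 with ST045849. These values, above those of Ftl1 in every library by 1.67 to 2.78 times, are on a short length: as fragments they equal 13.5 to 22.6% of those in the Ftl1 row. Whether the Ftl1 row also counts these fragments is not given in the sources used here. If it leaves them out, Ftl1 with them added would be 1132 ± 368 FPKM in vehicle, 1423 ± 308 in bleomycin and 4429 ± 2308 with ST045849 (mean ± SD, n = 3). Its log2 changes would then be 0.36, 1.52 and 1.87 in place of 0.35, 1.49 and 1.84. A mature miRNA cannot be told from Ftl1 mRNA in these libraries.

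Ftl1 also has 16 near copies in the genome by the rule of at least 85% identity over at least 150 bases and at least 50% of the coding sequence. The share was added after the values were seen, to leave out Cars, a tRNA synthetase gene with a short match. The closest, Ftl1-ps1, is 99.6% identical over 549 bases and averaged 11.3 FPKM in vehicle, 16.3 in bleomycin and 45.5 with ST045849. The 16 copies together summed to 12.7, 17.7 and 50.2 FPKM, small beside Ftl1 itself, and how reads were shared among them is not given in the sources used here. The 2 copies of Fth1 summed to under 1 FPKM in each group mean, at most 0.736. Gm10252 shares 355 bases with Ftl1 on the opposite strand and was listed at 0.384 to 4.51 FPKM.

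Both chains together made up 0.434 to 0.597% of summed FPKM in vehicle, 0.560 to 0.769% in bleomycin and 1.14 to 2.01% with ST045849. Their proportion overlapped among groups: Fth1 over Ftl1 was 0.733 to 1.18, 0.845 to 1.22 and 0.658 to 1.21.

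Tfrc (ENSMUSG00000022797; chr16:32608920-32632794, plus strand, 6185 exon bases), the receptor that takes up transferrin-bound iron, was 15.3, 16.3 and 22.2 FPKM in vehicle, 11.2, 12.7 and 17.8 in bleomycin, and 19.6, 9.21 and 20.1 with ST045849. All groups overlapped. The changes were -0.35 ± 0.30 for bleomycin against vehicle, 0.17 ± 0.30 for ST045849 against bleomycin and -0.18 ± 0.30 for ST045849 against vehicle, with adjusted p of 0.642, 0.735 and 0.69. Tfrc is the transcript with the 4 hairpins in its 3′ UTR printed above. The ratio of Fth1 to Tfrc FPKM within a library was 38.7 to 70.6 in vehicle, 61.7 to 132 in bleomycin and 122 to 418 with ST045849. The second ST045849 library, with the highest Fth1 and the lowest Tfrc, gave the highest ratio. Fth1 has 3469 exon bases, so the ratio also carries the length slope, steepest in that library (-0.212). In ST045849 against bleomycin, genes of like length had median changes of 0.15 for Fth1 and -0.13 for Tfrc. With the length trend removed, the changes there were 1.18 for Fth1 and 0.34 for Tfrc.

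Slc11a2 (ENSMUSG00000023030; chr15:100387898-100425072, minus strand, 6354 exon bases), the ferrous iron transporter of endosomes and gut, was the steadiest of the genes beside Aco1. It was 12.9, 10.9 and 10.3 FPKM in vehicle, 10.3, 11.4 and 10.2 in bleomycin, and 12.8, 12.4 and 11 with ST045849. Its highest library was 1.27 times its lowest. The 3 changes were -0.08, 0.17 and 0.08, each ± 0.17, with adjusted p of 0.873, 0.538 and 0.764. Gm5475 shares 402 bases with it on the opposite strand and was listed at 0.0459 FPKM or less.

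Slc40a1 (ENSMUSG00000025993; chr1:45908068-45926523, minus strand, 9000 exon bases), the only known cellular iron exporter, was 5.81, 10.8 and 12.7 FPKM in vehicle, 8.45, 10.3 and 13.9 in bleomycin, and 7.71, 5.10 and 10.5 with ST045849. The groups overlapped. The changes were 0.18 ± 0.31, -0.46 ± 0.31 and -0.28 ± 0.31 in the same order, with adjusted p of 0.85, 0.355 and 0.552. Genes of like length had a median change of -0.31 in ST045849 against bleomycin, and with the length trend removed the Slc40a1 change was -0.12.

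Ireb2 (ENSMUSG00000032293; chr9:54863789-54912530, plus strand, 9479 exon bases), which encodes iron regulatory protein 2, was 9.05, 13.9 and 14.4 FPKM in vehicle, 13.2, 7.95 and 13.5 in bleomycin, and 9.23, 3.65 and 10.0 with ST045849. The second ST045849 library held the lowest level and the groups overlapped. The changes were -0.11 ± 0.34, -0.60 ± 0.34 and -0.71 ± 0.34, with adjusted p of 0.924, 0.283 and 0.176. In ST045849 against bleomycin the blocked fit gave an adjusted p of 0.0477, with the level lower in 3 of 3 same-numbered pairs. That was the 1 blocked call that fell among the 10 genes. The median change of 1335 genes of like length was -0.32, and with block and length trend removed the Ireb2 change was -0.23 (adjusted p 0.388).

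Aco1 (ENSMUSG00000028405; chr4:40143081-40198338, plus strand, 4496 exon bases) encodes the cytosolic aconitase that becomes iron regulatory protein 1 when it loses its iron-sulfur cluster. It was 13.3, 12 and 12 FPKM in vehicle, 11.9, 13.6 and 14.1 in bleomycin, and 15.1, 12.9 and 12.4 with ST045849, with all groups overlapping. Its changes were 0.08, 0.02 and 0.10, each ± 0.17, with adjusted p of 0.881, 0.944 and 0.704. Its highest library was 1.26 times its lowest.

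By level in vehicle the order was Ftl1 (980 ± 326 FPKM), Fth1 (857 ± 222), Hmox1 (41.3 ± 21.3), Tfrc (17.9 ± 3.72), Ireb2 (12.5 ± 2.97), Aco1 (12.4 ± 0.721), Slc11a2 (11.4 ± 1.35), Slc40a1 (9.77 ± 3.56), Blvrb (9.40 ± 1.78) and Blvra (8.97 ± 2.74), each mean ± SD over 3 libraries. The ferritin chains lay within each other's spread, and so did neighbours from Ireb2 down to Blvra. With ST045849, Hmox1 stood at 661 ± 385 and Blvrb, at 25.9 ± 10.9, had the fourth-highest mean.

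In the blocked fit of ST045849 against bleomycin 5 of the 10 genes were called, Hmox1, Ftl1, Fth1 and Blvrb higher and Ireb2 lower, where 19.3% of all tested genes were called. With the length trend also removed Hmox1 was the 1 gene left. Libraries of 4 of the 10 genes did not overlap between these 2 groups (Hmox1, Blvra, Ftl1 and Fth1, all higher), where 16.5% of tested genes lay apart and higher. Against vehicle the 4 called genes also lay apart, where 21% did so higher, and for bleomycin against vehicle Hmox1 and Fth1 did, where 21.4% did. Without the first ST045849 library, Hmox1, Blvrb, Ftl1 and Fth1 were called against bleomycin (adjusted p 0.0114 for Hmox1 and 0.0241 to 0.0261 for the others), where 17.9% of tested genes were.

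**Figure D3:**
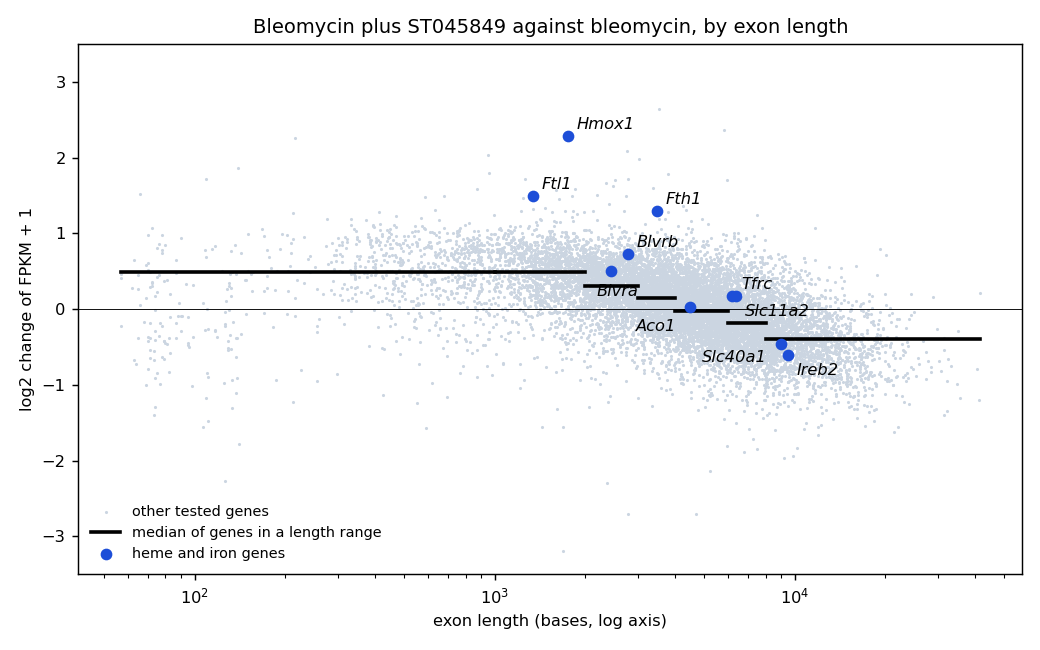
Log2 change of FPKM + 1 in bleomycin plus ST045849 against bleomycin (y axis) by exon length in bases (x axis, log scale) for all tested genes with a length (grey), the median of genes in each length range (black lines) and the 10 heme and iron genes (blue). Hmox1 (2.29), Ftl1 (1.49) and Fth1 (1.29) lie above the medians at their lengths, and the long Slc40a1 (-0.46) and Ireb2 (-0.60) lie below 0 near the median of -0.40 for genes over 8000 bases.

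Within the vehicle group the first library held the highest level of Hmox1, Blvra, Blvrb, Ftl1 and Fth1, and within the ST045849 group it held the lowest of all 5. The ratio of an ST045849 library to a vehicle library therefore varied widely for Hmox1, from 3.72 between the lowest of the former and the highest of the latter to 40.9 between the highest and the lowest.

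The genes whose log2 levels followed Hmox1 most closely over the 9 libraries were Tmem106c (Pearson r = 0.996), Fah (0.993), Bloc1s5 (0.991), Gsta4 (0.991) and Rtl8a (0.990). Among the other members r was 0.969 for Fth1, 0.967 for Blvrb, 0.938 for Ftl1 and 0.886 for Blvra. It was 0.37 for Slc11a2, 0.29 for Aco1, -0.30 for Tfrc, -0.41 for Slc40a1 and -0.74 for Ireb2. These are descriptions over 9 libraries that share 3 groups and the length slope, so a gene that differs between groups in the same order scores highly. By this measure Fth1 ranked 63rd and Blvrb 72nd among the tested genes.

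The wider lists of related genes were chosen with earlier results of these data known, and are given by counts. Without the block or removal of the length trend, none of the 10 tested heme synthesis genes was called in any comparison. Of all tested genes, 4.88% were called in bleomycin against vehicle, 0% in ST045849 against bleomycin and 9.85% in ST045849 against vehicle. The count of called heme synthesis genes was thus near the background. Their median change was 0.44 in ST045849 against vehicle, beside 0.19 for all genes. Fech, the enzyme that puts iron into heme, has 13838 exon bases, and its change in that comparison was 0.35 (limma adjusted p 0.389) but 0.88 (0.0346) with the length trend removed. Tmem14c (914 exon bases), a porphyrin carrier and the most abundant of them, was 58.9, 36.8 and 58.8 FPKM in vehicle and 51.5, 71.9 and 92.8 with ST045849 (0.47 ± 0.28, limma adjusted p 0.265).

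Of 9 tested genes of heme transport and other breakdown, 3 rose and 1 fell in ST045849 against vehicle, where 9.85% of all tested genes were called. Slc48a1, which moves heme out of lysosomes, rose by 1.87 ± 0.28 (limma adjusted p 0.00393), from 63.2, 42.1 and 43.3 FPKM to 125, 265 and 178, with bleomycin in between at 85.4, 95.5 and 85.5. The heme exporter Abcg2 rose by 1.08 ± 0.27 (0.0332), as it did with bleomycin alone, by 1.07 ± 0.27 at an adjusted p of 0.0497. Haptoglobin (Hp), which binds free hemoglobin, rose by 1.19 ± 0.34 (0.0494) at levels of 5.77 FPKM or less, a call lost with the length trend removed (0.84, adjusted p 0.177). Flvcr2, a heme carrier relative, fell by 0.91 on the log2 scale (0.0177), and by 0.84 with bleomycin alone (0.0354).

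Among 11 tested genes of iron uptake and ferric reduction, bleomycin against vehicle gave 2 higher and 1 lower, beside 4.88% of all genes called. Transferrin (Trf), the plasma iron carrier, rose by 1.33 ± 0.22 (limma adjusted p 0.00759), from 3.19, 4.29 and 2.87 FPKM to 8.84, 13.5 and 8.56. Slc39a8, a zinc and iron importer, rose by 0.91 ± 0.17 (0.0128), from 1.24, 1.24 and 1.21 FPKM to 3.01, 3.47 and 3.08. Its vehicle levels were close to the filter of 1 FPKM. The metal reductase Steap1 fell by 1.10 on the log2 scale (0.0466), from 54.3, 29.7 and 33.3 FPKM to 15.7, 19.5 and 16.1, and was 25.3, 44.1 and 42.7 with ST045849. Against vehicle, the ST045849 group had Trf higher (1.20 ± 0.22, 0.00954) and the importer Slc39a14 lower (-1.05 ± 0.23, 0.0184), beside 9.85% of all genes called. Slc39a14 has 10550 exon bases, and its call was lost with the length trend removed (-0.65, adjusted p 0.0543).

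None of the 8 tested genes of iron storage, chaperoning and export partners was called in any comparison without the block or removal of the length trend. That count is near the background: 4.88% of all tested genes for bleomycin against vehicle, 0% for ST045849 against bleomycin and 9.85% for ST045849 against vehicle. Pcbp1, a chaperone that hands iron to ferritin, had the highest level, 155, 117 and 133 FPKM in vehicle and 131, 153 and 155 with ST045849. Ncoa4, the receptor that takes ferritin to lysosomes, was 6.23, 11.5 and 11.3 FPKM in vehicle and 10.4, 2.82 and 7.03 with ST045849 (-0.55 ± 0.37, adjusted p 0.326). Fbxl5, the iron sensor that marks Ireb2 protein for degradation, was 14.4, 16.9 and 16.9 FPKM in vehicle and 31.1, 32 and 26 in bleomycin, apart but not called (0.84 ± 0.24, adjusted p 0.0735). With the length trend removed Fbxl5 was called there (0.83, 0.0321) and in ST045849 against vehicle (0.99, 0.0138), where its change was otherwise 0.62 (0.11).

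Of 20 tested iron-sulfur cluster assembly genes, 2 rose in ST045849 against vehicle: Nfs1, the cysteine desulfurase (0.77 ± 0.19, limma adjusted p 0.0318), and the scaffold Iscu (1.07 ± 0.29, 0.0432; 0.052 with the length trend removed). A count of 2 of 20 is near the 9.85% of all genes called. The median change of the 20 was 0.55 beside 0.19 for all genes, and 0.43 beside 0.19 after the length trend was removed. Against bleomycin 9 of the 20 were called higher in the blocked fit, where 19.3% of all genes were called, and 0 with the length trend also removed, where 0.129% were.

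Of 15 tested genes known as NRF2 or BACH1 targets, 6 rose in ST045849 against vehicle and none fell, where 8.11% of all genes were called higher, with a median change of 0.73 beside 0.19 for all genes. Gsta4, a glutathione transferase for lipid aldehydes, rose by 3.02 ± 0.36 (limma adjusted p 0.00142), from 4.33, 3.22 and 3.36 FPKM to 17.9, 60.6 and 44.3, with bleomycin at 8.57, 12 and 10.8. Osgin1 rose by 1.17 ± 0.19 (0.00535). Txnrd1, thioredoxin reductase, rose by 0.73 ± 0.20 (0.0438), and Srxn1, sulfiredoxin, by 1.20 ± 0.29 (0.03). The other called genes were Prdx1 and Gclc.

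Other well-known targets did not pass. Nqo1, a quinone reductase, was 31.2, 21.4 and 21 FPKM in vehicle, 25, 22.6 and 14.7 in bleomycin and 38.3, 51.1 and 39.4 with ST045849, with an adjusted p of 0.0651 against vehicle. Gclm, a subunit of the glutathione synthesis enzyme, gave 0.73 ± 0.23 (0.0648), and 0.89 (0.0444) with the length trend removed. The cystine importer Slc7a11 was not tested, with 0.36 to 1.2 FPKM over the 9 libraries. In bleomycin against vehicle 0 of the 15 targets were called, beside 4.88% of all genes, and Gclc (adjusted p 0.0388) and Gsta4 (0.0126) were called with the length trend removed. In ST045849 against bleomycin 0 were called without the block, 7 higher and 1 lower with it (19.3% of all genes called), and 0 with block and length trend removed (0.129%).

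The transcripts of NRF2, BACH1 and their partner KEAP1 were not called in any comparison, with or without the block. Nfe2l2, which encodes NRF2, was 31.6, 22.8 and 31.6 FPKM in vehicle, 25.1, 24.4 and 32.8 in bleomycin and 28.6, 29.2 and 39.8 with ST045849. Bach1 was 2.46, 5.12 and 5.47 in vehicle, 5.08, 4.34 and 5.76 in bleomycin, and 4.23, 1.32 and 3.97 with ST045849, where it lay below the bleomycin libraries (blocked adjusted p 0.0596) and overlapped vehicle. Keap1, which holds NRF2 down, gave 0.28 ± 0.18 against vehicle (limma adjusted p 0.303).

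Among the 11 tested regulators 3 rose in ST045849 against vehicle and 2 in bleomycin against vehicle, beside 9.85% and 4.88% of all genes called. The small MAF gene Maff, whose product partners NRF2 and BACH1 on DNA, rose by 1.48 ± 0.25 with bleomycin (limma adjusted p 0.0085) and by 1.60 ± 0.25 with ST045849 (0.00503). Its level was 1.36, 0.911 and 1.02 FPKM in vehicle, 3.89, 5.41 and 5.34 in bleomycin and 3.25, 7.57 and 5.95 with ST045849. Epas1, which encodes the hypoxia factor HIF-2α, rose by 1.15 ± 0.22 (0.0138) and 0.88 ± 0.22 (0.0303) in these comparisons. Mafk rose in the second of them (0.79 ± 0.18, 0.0219).

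In ST045849 against bleomycin, where limma called 0% of all tested genes, none of these lists had a called gene without the block. With it, where 19.3% of all genes were called, the porphobilinogen synthase gene Alad (adjusted p 0.0195), Slc48a1 (0.019), Steap1 (0.0163), Gsta4 (0.00772), Nqo1 (0.0168), Srxn1 (0.0253), Prdx1 (0.0173), Osgin1 (0.0469), Hmox2, G6pdx, Pgd and 9 iron-sulfur cluster genes were called higher, and so was Hfe, a partner of the transferrin receptor (0.72, 0.0269). The regulator gene Atf4, which encodes a stress-response factor, rose by 1.66 (0.0115), from 124, 104 and 80.3 FPKM in bleomycin to 247, 279 and 488, with 186, 63.7 and 202 in vehicle. Called lower were Slc39a8 (0.0466), Hif1a, the HIF-1α gene (-0.90, 0.0321), Nfe2l1, which encodes the NRF2 relative NRF1 (-0.89, 0.0372), and the transporter Abcc1 (-0.68, 0.0375), a gene of 15092 exon bases. With the length trend also removed none of the genes of these lists was called, and the adjusted p were 0.0504 for Gsta4, 0.0556 for Prdx1, 0.0558 for Atf4 and 0.656 for Abcc1.

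In ST045849 against vehicle, the calls of Slc48a1, Gsta4, Osgin1, Prdx1 and Maff were kept in all 9 leave-outs of 1 library, with an adjusted p of at most 0.0365. In bleomycin against vehicle that of Trf was kept in all 9 (at most 0.0454). The other calls of genes of these lists without the block in the 2 comparisons with vehicle were lost in at least 1 leave-out. Leaving out vehicle library 2 ended each of these, except that of Trf in ST045849 against vehicle, which was lost without vehicle library 3 (0.0519). The highest adjusted p was 0.183, for Txnrd1 without vehicle library 2, and Hp, Txnrd1 and Iscu passed in only 2 of 9, as did Steap1 in bleomycin against vehicle.

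**Figure D4:**
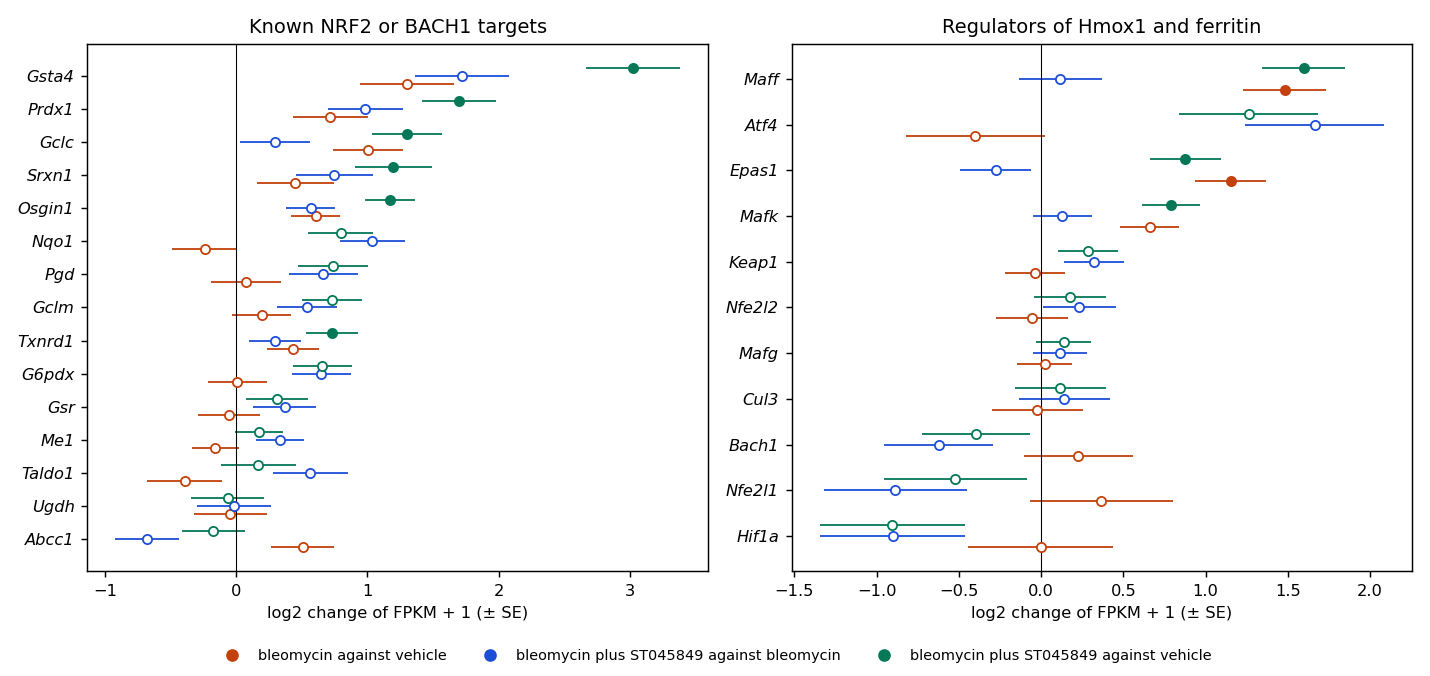
Log2 change of FPKM + 1 (x axis, ± 1 SE) of the 15 tested NRF2 or BACH1 targets (left) and 11 regulators (right) in the 3 comparisons, with filled points at an adjusted p under 0.05 in limma. In bleomycin plus ST045849 against vehicle 6 targets and 3 regulators are filled, led by Gsta4 at 3.02, and in bleomycin plus ST045849 against bleomycin no point is filled.

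RefSeq promoters (GRCm38.p6, 250 bases before to 50 after a start) were in the table for 7 of the 10 genes: Blvra, Blvrb, Ftl1, Fth1, Tfrc, Ireb2 and Aco1. Hmox1, Slc40a1 and Slc11a2 were not among them. The core letters of the element bound by NRF2 and BACH1 with small MAF proteins, TGACNNNGC, were searched on both strands and found in Blvra alone, on the other strand with the match starting 49 bases before the start, and 12.4% of 32851 promoters hold them. A longer MAF recognition sequence, searched in the same way, was found in none of the 7 and in 0.155% of promoters. The known elements of Hmox1 and ferritin genes lie farther from the start than this window reaches.

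Macrophages are rich in Hmox1, ferroportin and ferritin. Their 13 markers summed to 3.05 to 5.75 FPKM in vehicle, 11.1 to 12.7 in bleomycin and 11.9 to 18 with ST045849. Of the defining markers, C1qb, C1qc and Tyrobp had a value of 0 in each of the 9 libraries. Lyz2, Cd68 and Cd14, 3 of the 13, passed the filter. All 3 were called higher in both comparisons with vehicle, where 4.88% (bleomycin) and 9.85% (ST045849) of all genes were called. For Lyz2, Cd68 and Cd14 in turn, the bleomycin calls were kept in 4, 5 and 4 of the 9 leave-outs of 1 library. Those with ST045849 were kept in 9, 7 and 7. The rest of the 13 were at 0.189 FPKM or less in every library, so the sums came almost wholly from these 3. Erythroid markers summed to 0.338 FPKM or less and endothelial markers to 0.543 or less. Fibroblast or synovial markers summed to 2867 to 3989 FPKM in vehicle, 4034 to 6012 in bleomycin and 2406 to 4765 with ST045849, with 3 of 7 called higher in each comparison with vehicle, beside 4.88% and 9.85% of all genes called in either direction. The part of these marker changes in the changes of the heme and iron genes was not tested.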

How the data were processed

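Values were deposited by the authors as FPKM per gene, 1 table per library. Per the labels' protocols the libraries came from a stranded mRNA kit, and per the submitters' processing notes the tools were Trimmomatic and STAR on GRCm38. The counting program, strand setting and denominator of the FPKM were not given in the sources used here. Lengths, overlaps and UTRs came from GENCODE vM21, which held 55190 of the 55450 identifiers, and copies from blastn 2.17.0.

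Log2(FPKM + 1) of all 9 libraries was fitted with limma 3.58.1 (R 4.3.3, trended variances, 6 residual degrees of freedom), with Benjamini-Hochberg adjustment over the 12441 genes of at least 1 FPKM in at least 3 libraries. Calls are at an adjusted p under 0.05. The test was tried on simulated data with independent libraries, which held no length trend or pairing. Of low values, 39.3 to 45.7% were less than 0.02 from a whole step (4% expected of evenly spread values), so only relative depth was used, with no count test.

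Deviations of same-numbered libraries correlated at 0.466 to 0.5 between ST045849 and bleomycin, and those of unlike number at -0.320 to -0.172. These groups were therefore taken as paired, from the data and not the labels. The other comparisons had same-numbered pairs below 0.1. Libraries of unlike number reached 0.568 between ST045849 and vehicle, so correlations of this size do not establish pairing. The blocked calls rest on a pairing read from the same values. The 10 genes and the lists were chosen with earlier results of these data known. Named from each list were all genes called in the fit without block (over 4, the 2 lowest adjusted p in each direction), otherwise the most abundant, with Hmox2, Nfe2l2, Bach1, Keap1, Ncoa4, Fbxl5, Nqo1, Gclm, Txnrd1, Srxn1 and Slc7a11 always named, and genes called with the block or the length trend removed were added after their values were seen. Alternatives were pseudocounts, filters, scalings, length trend removal, blocks, 2 groups alone, variance settings and leaving out each library.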

Additional observations from a re-analysis of the deposited data

How the results depend on the processing

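Over 16 alternatives and 9 leave-outs of 1 library, the 10 genes in 3 comparisons gave 750 values, of which 686 kept their direction and side of the threshold, 20 newly passed it, 16 no longer did and 28 changed sign, none of the last called. The cause of these changes was not tested. For bleomycin against vehicle, 607 genes were called, and 284 at a mean of at least 5 FPKM, 1183 with replicate block and length trend removed in 9 libraries, 1024 with 2 groups alone, 1362 with these plus block and length trend removed, 1938 with array weights, and 184 to 829 without 1 library. Of the 10 genes, 1 (Hmox1) was called with quantile normalization, length trend removed, either block with length trend removed, 2 groups alone and array weights, and 0 to 1 without 1 library. For ST045849 against bleomycin the 0 genes became 1 with no filter, 2 with the stricter filter, quantile normalization, length trend removed or array weights, 2403 with 2 groups alone and replicate block (5 of the 10), 16 with length trend also removed (1 of the 10), and 0 to 2225 without 1 library (0 to 4 of the 10). For ST045849 against vehicle the 1225 became 651 with no filter (2 of the 10), 660 with the stricter filter, 710 as TPM, 621 with 2 groups alone, 199 with replicate block too (1 of the 10), 328 with length trend also removed (2 of the 10), 2767 with array weights, and 286 to 3060 without 1 library (2 to 5 of the 10, with 2 without vehicle library 2 or 3 or ST045849 library 2 or 3). In the 2 comparisons with vehicle the numbers did not pair the samples, and the block over all 9 libraries gave 733 and 1386 genes.

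Scaling moved the median change of all genes from 0.10, 0.06 and 0.19 in the 3 comparisons to -0.02, -0.01 and 0.00 (median-of-ratios), -0.03, 0.03 and 0.02 (quantile) and 0.13, -0.19 and -0.03 (TPM). Higher and lower calls against vehicle went from 523 and 84 to 351 and 141 (median-of-ratios) or 316 and 151 (quantile) for bleomycin, and from 1009 and 216 to 495 and 368, 518 and 322, or 493 and 217 (TPM) for ST045849. Sign changes in bleomycin against vehicle were Blvra -0.036 and Aco1 -0.055 (median-of-ratios), Blvra -0.023 and Aco1 -0.038 (quantile) and Slc40a1 -0.056 (array weights). Without 1 library they ranged from -0.030 to 0.309 for Blvra, -0.119 to 0.386 for Slc40a1, -0.144 to 0.0029 for Slc11a2 and -0.309 to 0.115 for Ireb2. In ST045849 against bleomycin Aco1 was -0.061 (median-of-ratios), -0.042 (quantile), -0.252 (TPM) and -0.022 (array weights), Tfrc -0.103 and Slc11a2 -0.098 (TPM). Without 1 library Aco1 was -0.058 to 0.075 and Tfrc -0.014 to 0.510. In ST045849 against vehicle Slc11a2 and Aco1 were -0.134 and -0.117 (median-of-ratios), -0.085 and -0.080 (quantile), and -0.164 and -0.145 (TPM). Slc40a1 was 0.049 with length trend removed, with or without the replicate block, and 0.051 with 2 groups alone, replicate block and length trend removed. Tfrc was -0.365 to 0.159 without 1 library.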
